A study of Homo sapiens with 12 samples.

Results

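The 7 genes described here, which encode cofactors of the androgen receptor, were followed across prostate cancer cell lines that differ in their response to enzalutamide, an antiandrogen that blocks this receptor. They were taken by gene name: the transcription factor genes FOXA1, GATA2 and GRHL2, the coactivator genes NCOA1, NCOA2 and NCOA3, and the corepressor gene NCOR1. All 7 were found among the 57992 gene entries of the count table, and all 7 are among the 15407 genes with enough counts to test. Poly(A) RNA had been sequenced in 4 lines with 3 biological replicates each, and the series title asks about NOTCH signalling in enzalutamide resistance. LNCaP and C4-2 are labelled sensitive, and MR49F and C4-2R resistant. LNCaP is an androgen-responsive line from a metastasis of prostate adenocarcinoma, and the other lines were derived from it: C4-2 grows under castrate conditions and MR49F under enzalutamide. The labels give no culture medium, drug exposure or genetic modification for any line. Each line stands for 1 established line, so that a difference between lines and a difference in drug response cannot be told apart. The 9 libraries of LNCaP, MR49F and C4-2 were used. The other 3 columns of the table could be given to C4-2R by elimination only, since their name matches no sample, and C4-2R was not analysed here.

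The androgen receptor is a transcription factor that binds DNA when androgen is present. FOXA1 and GATA2 are pioneer factors, which can bind closed chromatin and open it for the receptor, and GRHL2 is a grainyhead-like factor of epithelial cells that shares many enhancers with the receptor. The p160 proteins NCOA1, NCOA2 and NCOA3 (also called SRC-1, SRC-2 and SRC-3) bind the hormone-bound receptor and bring in histone acetyltransferases. NCOR1 is a scaffold that brings histone deacetylases to unliganded or antagonist-bound receptors and so lowers transcription.

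Libraries held 6990461 to 9375912 counts, except C4-2 replicate 1 with 42770072. In that library long genes were lower relative to short genes than in the other C4-2 replicates, and the fold changes of the long cofactor genes are given with and without it. All 8 luminal prostate marker genes were detected in every line, with a summed level in CPM (counts per 1000000 counts of the library) of 5409 to 5580 in LNCaP, 8266 to 8569 in MR49F and 6832 to 7949 in C4-2. The 4 leukocyte markers summed to at most 0.328 CPM. Fibroblast markers summed to 24.1 to 27.9 CPM in LNCaP, 7.15 to 8.19 in MR49F and 14.4 to 19.6 in C4-2, and neuroendocrine markers to 30.9 to 34.1, 27.7 to 32.5 and 9.87 to 12.6 CPM. Endothelial markers summed to 3.29 to 4.82 CPM in LNCaP, 0.475 to 0.576 in MR49F and 2.58 to 3.29 in C4-2. The fibroblast, neuroendocrine and endothelial sums rest mainly on COL1A1, ENO2 and VWF, respectively. In the order LNCaP, MR49F, C4-2, COL1A1 had 25.4, 5.72 and 16.5 CPM, ENO2 29.5, 25.7 and 7.51, and VWF 3.92, 0.494 and 2.94. LUM (0.406, 1.91 and 0 CPM) and SYP (2.51, 4.95 and 3.35), of the fibroblast and neuroendocrine markers, were instead highest in MR49F. The sums are thus no measure of cell content, and the part of these markers in the results was not tested. In bulk RNA, fewer cells that express a gene and less RNA per cell cannot be told apart.

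The 7 genes differed widely in level. Levels of different genes are compared per length, as CPM per kilobase (kb) of merged exons. In LNCaP FOXA1 was the highest, at 100.4 ± 2.01 CPM per kb (SD, n = 3, as for all values below), followed by GATA2 at 52.8 ± 2.29 and GRHL2 at 25.5 ± 0.333. NCOA2 (17.7 ± 0.668) and NCOR1 (16.0 ± 0.658) came next, and NCOA1 (10.1 ± 0.199) and NCOA3 (7.33 ± 0.202) were the lowest. In MR49F the order changed: GRHL2 (37.3 ± 0.569) lay above GATA2 (27.1 ± 1.58), and NCOR1 (15.8 ± 0.572) lay above NCOA2 (9.67 ± 0.482). The order of NCOR1 and NCOA2 in LNCaP depended on the length used. Per kb of the longest transcript, NCOR1 (23.0) lay above NCOA2 (21.0) in LNCaP already. In C4-2 GATA2 (62.1 ± 1.53) and GRHL2 (57.4 ± 2.96) were neighbours, their difference larger than the SD of either. The C4-2 levels of NCOA1 (7.29 ± 1.34) and NCOA3 (7.48 ± 1.31) differed by less than their SD. Across lines the highest gene, FOXA1, exceeded the lowest, NCOA3 in LNCaP and MR49F and NCOA1 in C4-2, by a ratio of 13.7 in LNCaP, 22.4 in MR49F and 13.0 in C4-2.

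**Figure D1:**
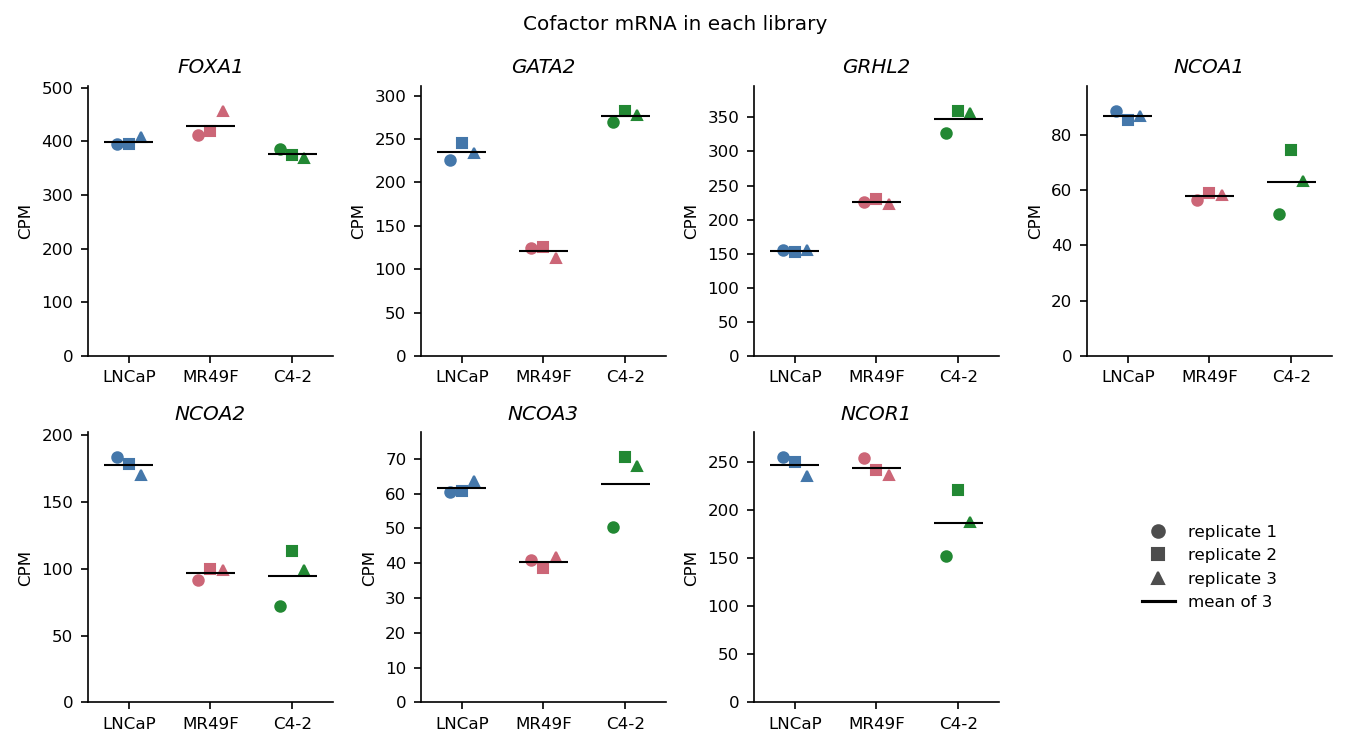
CPM (vertical axis, from 0) of each cofactor gene in the 9 libraries, grouped by line. Symbols mark the replicate and bars the mean of 3; GATA2 and the 3 NCOA genes lie lower in every MR49F library than in any LNCaP library, and C4-2 replicate 1 (circle) is the lowest C4-2 library for the NCOA genes and NCOR1.

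The comparison of MR49F with LNCaP sets a resistant line beside the sensitive line it derives from. GATA2 and all 3 p160 genes were lower in MR49F, GRHL2 was higher, and FOXA1 and NCOR1 did not pass the test. At an adjusted p under 0.05, 1 of the 7 genes was called higher and 4 lower, where 47.0% of all tested genes were called (24.1% higher and 22.8% lower). For 6 of the 7 the MR49F and LNCaP libraries did not overlap, against 59.8% of all tested genes. None of the 7 was called with a change over 2-fold, against 13.2% of all tested genes. The median log2 fold change of the 7 was -0.59, and that of all tested genes was 0.01.

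FOXA1 (ENSG00000129514, GRCh38 chromosome 14, 37589984 to 37596059, minus strand) had 395, 395 and 409 CPM in LNCaP replicates 1 to 3, 412, 419 and 458 CPM in MR49F, and 386, 374 and 369 CPM in C4-2. Its lines were ordered MR49F, LNCaP, C4-2 without overlap, but they lay close together. Neither MR49F (log2 fold change 0.10, SE 0.0715, edgeR adjusted p = 0.248) nor C4-2 (-0.09, adjusted p = 0.326) passed against LNCaP. MR49F was higher than C4-2 by 0.19 (SE 0.0714, edgeR adjusted p = 0.0255). That call was lost without MR49F replicate 3 (0.14, adjusted p = 0.0979), without C4-2 replicate 2 (0.18, 0.0546) or 3 (0.18, 0.0723), with no filter on low counts (0.16, 0.140) and with the 6 libraries of these lines alone (0.18, 0.0967). By CPM, FOXA1 lay above 98.1% of tested genes in LNCaP and above 98.2% in MR49F. The neighbouring gene TTC6, whose annotation begins 0.212 kb away on the opposite strand and shares 16 exon bases with FOXA1, was lower in MR49F: 135 ± 4.44 CPM in LNCaP and 16.9 ± 1.15 CPM in MR49F (log2 fold change -2.99, edgeR adjusted p = 4.21e-15).

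GATA2 (ENSG00000179348, chromosome 3, 128479427 to 128493185, minus strand) had 226, 246 and 234 CPM in LNCaP, 124, 125 and 113 CPM in MR49F, and 269, 283 and 278 CPM in C4-2. Every MR49F library lay below every library of the other lines, and every C4-2 library above them. The mean was 235 ± 10.2 CPM for LNCaP against 121 ± 7.07 CPM for MR49F, and the SE of the log2 fold change of -0.96 was 0.0766 (edgeR adjusted p = 1.77e-09). C4-2 was 0.23 higher than LNCaP (SE 0.0745, edgeR adjusted p = 0.0132). It no longer passed when LNCaP replicate 1 (0.20, adjusted p = 0.0903) or replicate 3 (0.22, adjusted p = 0.0523) was left out. Between MR49F and C4-2 the log2 fold change was -1.20 (edgeR adjusted p = 3.04e-11). GATA2-AS1, an antisense gene that overlaps GATA2 but shares no annotated exon base with it, was also lower in MR49F. It averaged 28.9 CPM in LNCaP and 29.2 CPM in C4-2, and 20.5 CPM in MR49F. Its log2 fold change was -0.49 in MR49F against LNCaP (edgeR adjusted p = 0.00135) and 0.00 in C4-2 against LNCaP (adjusted p = 0.984). Whether the counting used strand is not given in the sources used here, so reads of a gene and its antisense partner may not be told apart.

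GRHL2 (ENSG00000083307, chromosome 8, 101492432 to 101669726, plus strand) had 155, 152 and 156 CPM in LNCaP, 226, 230 and 223 CPM in MR49F, and 327, 360 and 356 CPM in C4-2. The 3 lines formed separate steps with no overlap, LNCaP the lowest and C4-2 the highest. Of the 7 genes, GRHL2 alone was called higher in MR49F than in LNCaP (log2 fold change 0.55, SE 0.0732, edgeR adjusted p = 2.98e-06), and it rose in C4-2 as well (1.17, SE 0.0732, edgeR adjusted p = 3.71e-11). The rise in C4-2 was 2.25-fold. MR49F was lower than C4-2 (-0.62, edgeR adjusted p = 2.67e-07).

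The p160 genes fell together in MR49F. NCOA2 (ENSG00000140396, chromosome 8, 70109762 to 70403805, minus strand) had 184, 179 and 171 CPM in LNCaP, 91.4, 100.2 and 99.1 CPM in MR49F, and 72.6, 113 and 99.2 CPM in C4-2. All MR49F and C4-2 libraries lay below all LNCaP libraries, while MR49F and C4-2 overlapped. The log2 fold change was -0.87 (SE 0.115, edgeR adjusted p = 2.77e-06) in MR49F and -0.92 (SE 0.114, edgeR adjusted p = 1.21e-06) in C4-2, each against LNCaP. MR49F and C4-2 did not pass against each other (0.05, edgeR adjusted p = 0.735). Without C4-2 replicate 1, C4-2 against LNCaP was -0.74 and still passed, and MR49F against C4-2 was -0.13 (edgeR adjusted p = 0.143).

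NCOA1 (ENSG00000084676, chromosome 2, 24491914 to 24770702, plus strand) had 88.9, 85.4 and 86.8 CPM in LNCaP, 56.5, 59.1 and 58.2 CPM in MR49F, and 51.2, 74.4 and 63.2 CPM in C4-2. It too was lower than LNCaP in every library of the other lines. The log2 fold change was -0.59 in MR49F (SE 0.107, edgeR adjusted p = 1.26e-04) and -0.49 in C4-2 (SE 0.105, edgeR adjusted p = 6.44e-04). Between MR49F and C4-2 it was -0.10 (edgeR adjusted p = 0.444), and without C4-2 replicate 1 it was -0.25, which passed (adjusted p = 0.0114). C4-2 against LNCaP was then -0.34 and still passed.

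NCOA3 (ENSG00000124151, chromosome 20, 47501902 to 47656877, plus strand) had 60.6, 60.7 and 63.5 CPM in LNCaP, 41.0, 38.5 and 41.7 CPM in MR49F, and 50.2, 70.5 and 67.8 CPM in C4-2. It was lower in all MR49F libraries than in any other library, whereas C4-2 libraries lay on either side of LNCaP. Its log2 fold change was -0.61 in MR49F against LNCaP (SE 0.113, edgeR adjusted p = 1.57e-04), 0.01 in C4-2 against LNCaP (adjusted p = 0.969) and -0.61 in MR49F against C4-2 (adjusted p = 7.56e-05). Without C4-2 replicate 1 the latter pair became 0.17 (edgeR adjusted p = 0.0951) and -0.77 (adjusted p = 6.41e-10).

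The stretches upstream of the 3 genes that fell in MR49F and have a promoter entry used here are shown to let the letters be compared with the values above. Each is 250 bases before the RefSeq gene start (GRCh38.p14, read 5′ to 3′ on the gene's strand), and capitals mark the GC box GGGCGG or its reverse complement CCGCCC. NCOA1 has another RefSeq start upstream, whose window, not shown, held 10 GC boxes at a GC content of 87.2%. The windows are chr2:24491627-24491876 for NCOA1, chr3:128493202-128493451 on the minus strand for GATA2 and chr20:47501637-47501886 for NCOA3.
NCOA1: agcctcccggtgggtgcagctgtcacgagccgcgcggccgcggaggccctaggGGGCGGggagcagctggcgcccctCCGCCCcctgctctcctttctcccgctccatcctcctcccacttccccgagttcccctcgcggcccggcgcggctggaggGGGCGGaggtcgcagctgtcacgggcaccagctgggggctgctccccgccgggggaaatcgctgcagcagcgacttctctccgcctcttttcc
GATA2: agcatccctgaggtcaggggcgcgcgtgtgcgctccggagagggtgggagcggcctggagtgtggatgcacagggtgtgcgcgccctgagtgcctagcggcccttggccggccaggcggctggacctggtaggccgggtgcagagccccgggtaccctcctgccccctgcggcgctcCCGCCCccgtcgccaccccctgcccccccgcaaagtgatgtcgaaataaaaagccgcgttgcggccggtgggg
NCOA3: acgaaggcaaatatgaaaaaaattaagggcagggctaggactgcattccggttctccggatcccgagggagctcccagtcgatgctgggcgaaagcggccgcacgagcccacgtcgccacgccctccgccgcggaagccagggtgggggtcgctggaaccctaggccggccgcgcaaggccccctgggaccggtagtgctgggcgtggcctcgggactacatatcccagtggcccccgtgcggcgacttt
The NCOA1 window shown held 3 GC boxes, the GATA2 window 1 and the NCOA3 window none, where 42.6% of 35116 promoter windows of this length held at least 1. GC content was 74% for NCOA1, 72.8% for GATA2 and 66.4% for NCOA3, against a median of 58%. The 4 other motifs searched on both strands were in none of these 3 windows: AGATAA (in 9.17% of all windows), TGTTTAC (2.98%), CCAAT (32.0%) and AGAACA (12.4%). The windows and motifs were chosen after the values were seen.

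NCOR1 (ENSG00000141027, chromosome 17, 16029157 to 16218185, minus strand) had 255, 250 and 236 CPM in LNCaP, 254, 241 and 237 CPM in MR49F, and 152, 221 and 187 CPM in C4-2. LNCaP and MR49F covered the same range, and C4-2 lay below both. Its log2 fold change in MR49F against LNCaP was -0.02 (SE 0.100, edgeR adjusted p = 0.898). NCOR1 was lower in C4-2 than in LNCaP (-0.41, SE 0.100, edgeR adjusted p = 0.0019) and lower than in MR49F (0.39 for MR49F against C4-2, adjusted p = 0.00199). Without C4-2 replicate 1 these became -0.28 and 0.26 and still passed. The 3 annotated NCOR1 pseudogenes had 0, 12 and 4 counts over the 9 libraries, against 22080 for NCOR1. NCOR1 shares 321 exon bases with PIGL on the opposite strand, and PIGL did not pass in any of the 3 comparisons (log2 fold changes -0.07 to 0.04).

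The comparison of C4-2 with LNCaP sets the sensitive lines side by side. GRHL2 and GATA2 were higher in C4-2, NCOA1, NCOA2 and NCOR1 were lower, and FOXA1 and NCOA3 did not pass. Of the 7 genes 2 were thus called higher and 3 lower, where 49.7% of all tested genes were called (26.2% higher and 23.5% lower). The libraries of the lines were apart for 6 of the 7, against 55.7% of all tested genes, and 1 of the 7, GRHL2, was called with a change over 2-fold, against 13.2%. In MR49F against C4-2, 2 were called higher (FOXA1 and NCOR1) and 3 lower (GATA2, GRHL2 and NCOA3), where 61.0% of all tested genes were called (29.9% higher and 31.1% lower). There 5 of the 7 did not overlap, against 61.9% of all tested genes, and 1, GATA2, was called with a change over 2-fold, against 18.6%. The comparisons share libraries, so that their values for a gene are not independent.

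**Figure D2:**
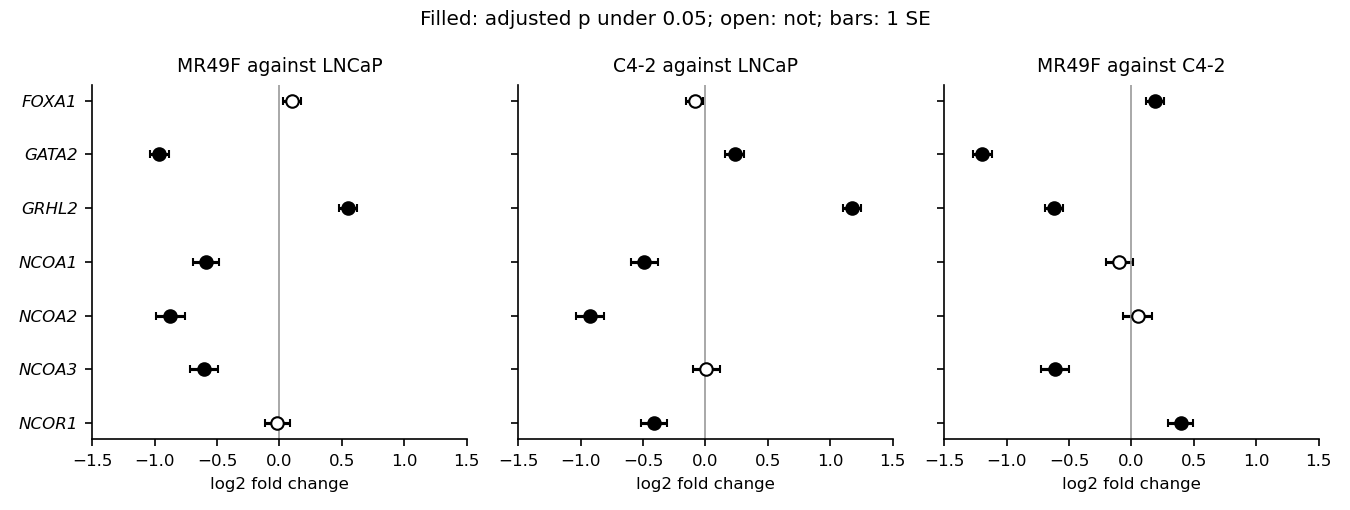
Log2 fold change of each cofactor gene (horizontal axis) in the 3 comparisons, with bars of 1 SE; filled points passed an adjusted p under 0.05. NCOA2 lies at -0.87 and -0.92 in the comparisons with LNCaP and at 0.05 between MR49F and C4-2, while GATA2 lies at -0.96, 0.23 and -1.20.

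The make-up of the p160 genes differed between lines, as the share of each gene in their summed CPM per kb. NCOA2 held 50.4 ± 1.14% of the sum in LNCaP, 45.6 ± 1.15% in MR49F and 38.9 ± 1.06% in C4-2. NCOA3 held 20.9 ± 0.881%, 22.7 ± 1.23% and 30.9 ± 1.16%, and NCOA1 28.7 ± 0.359%, 31.7 ± 0.402% and 30.1 ± 1.05% in the same order. The NCOA2 shares of the 3 lines did not overlap (49.1 to 51.2%, 44.4 to 46.7% and 37.8 to 39.9%). C4-2 replicate 1 had 37.8%, and the other C4-2 replicates had 39.1 and 39.9%. The p160 sum came to 35.1 ± 0.627 CPM per kb for LNCaP, 21.2 ± 0.569 in MR49F and 24.2 ± 4.66 in C4-2. Set against NCOR1, the sum gave a ratio of 2.19 ± 0.0616 in LNCaP, 1.34 ± 0.0829 in MR49F and 2.00 ± 0.0731 in C4-2. MR49F had the lowest ratios (1.25 to 1.41), below every library of LNCaP (2.15 to 2.26) and C4-2 (1.94 to 2.08). In C4-2 the ratio varied less among replicates than its parts did: the sum was 19.2, 28.3 and 25.3 and NCOR1 9.87, 14.3 and 12.1 CPM per kb in replicates 1 to 3. These shares and ratios are descriptions of RNA and were not tested.

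**Figure D3:**
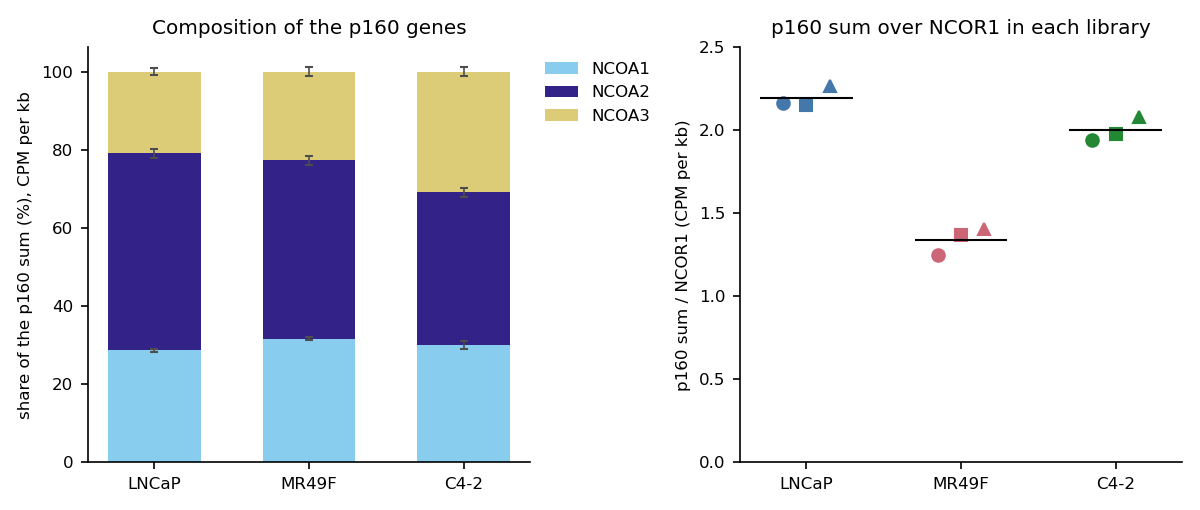
Left, share of each p160 gene in their summed CPM per kb (percent, bars are means of 3 libraries, error bars 1 SD); right, the p160 sum over NCOR1 in each library with the mean as a line. NCOA2 takes 50.4% in LNCaP and 38.9% in C4-2, and the MR49F ratios lie between 1.25 and 1.41.

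The spread among C4-2 replicates set the long cofactor genes apart from the short ones. The coefficient of variation in C4-2 was 18.4% for NCOA1, 21.7% for NCOA2, 17.5% for NCOA3 and 18.4% for NCOR1, and 2.27% to 5.15% for FOXA1, GATA2 and GRHL2. The former 4 have merged exons of 8.402 kb (NCOA3) to 15.404 kb (NCOR1). Over all tested genes, the median log2 CPM of C4-2 replicate 1 minus replicate 2 went from 0.19 for genes under 2 kb to -0.22 for genes of 8 kb or more, and the same medians in LNCaP and MR49F stayed between -0.04 and 0.02. NCOA1 (-0.54), NCOA2 (-0.64), NCOA3 (-0.49) and NCOR1 (-0.54) were further apart in C4-2 than the median of their length class. With the trend with length removed from each library, an alternative chosen after seeing the data, each of the 7 genes kept its call in all 3 comparisons. In C4-2 against LNCaP, NCOA1 was then -0.48, NCOA2 -0.90 and NCOR1 -0.33. With C4-2 replicate 1 left out as well they were -0.37, -0.77 and -0.28.

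**Figure D4:**
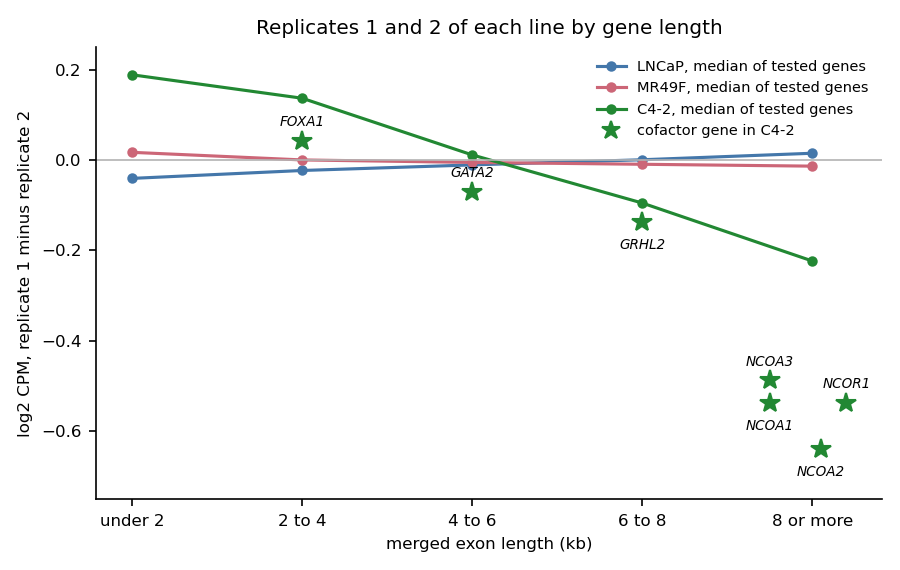
Log2 CPM of replicate 1 minus replicate 2 (vertical axis) by class of merged exon length, as the median of tested genes in each line (lines) and for each cofactor gene in C4-2 (stars, spread sideways within a class). The C4-2 median falls from 0.19 to -0.22 while LNCaP and MR49F stay near 0, and the NCOA genes and NCOR1 lie at -0.49 to -0.64.

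Genes next to the cofactors were read as a description of the regions they lie in. Of all tested genes, 24.1% were higher and 22.8% lower in MR49F than in LNCaP, and 26.2% and 23.5% in C4-2. Around NCOA1 in MR49F, the surrounding genes went the other way: of 79 tested genes within 5 Mb, 52 were higher than in LNCaP and 7 lower, with a median log2 fold change of 0.48, while NCOA1 itself was at -0.59. Within 1 Mb, 8 of 17 were higher and 3 lower. In C4-2 against LNCaP, where NCOA1 was at -0.49, 17 of the 79 were higher and 21 lower (median -0.08), and within 1 Mb 1 of the 17 was higher and 6 lower (median -0.27). Around NCOA2 in C4-2, 14 of 37 genes within 5 Mb were higher than in LNCaP and 2 lower, and the nearest tested protein-coding genes were SLCO5A1 (-0.13, edgeR adjusted p = 0.393) and TRAM1 (0.59, adjusted p = 1.83e-06), while NCOA2 was at -0.92. The fall of NCOA2 in C4-2 was thus not shared by its called neighbours within 1 Mb: of 6 tested, 4 were higher and 0 lower by edgeR, also at an unadjusted p under 0.05, by DESeq2 and by voom. In MR49F against LNCaP, where NCOA2 was at -0.87, 2 of the 6 were higher and 2 lower (median -0.12). There SLCO5A1 was lower (-1.16, edgeR adjusted p = 8.41e-07) and TRAM1 higher (0.23, adjusted p = 0.0185). Within 5 Mb, 13 of the 37 were higher and 5 lower in MR49F (median 0.19).

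GRHL2 in C4-2 moved in the direction of its neighbours. Of 9 tested genes within 1 Mb, 5 were higher than in LNCaP (median 0.52) and 0 lower by edgeR, also at an unadjusted p under 0.05, by DESeq2 and by voom. Among the 5 was ENSG00000254024 (1.98), an antisense gene that shares 50 exon bases with GRHL2. Its reads may not be told apart from those of GRHL2. Within 5 Mb 20 of 39 were higher and 2 lower (median 0.29). ZNF706, the nearest tested protein-coding gene on one side, rose in MR49F (0.71, edgeR adjusted p = 5.29e-06) and in C4-2 (1.44, adjusted p = 1.04e-10), in the same order of lines as GRHL2. RRM2B, on the other side, did not pass in MR49F (-0.03, edgeR adjusted p = 0.845) or C4-2 (0.09, adjusted p = 0.476). GATA2 had 14 higher and 0 lower genes by edgeR among 26 within 1 Mb in C4-2 against LNCaP (median 0.32), where 2 were lower at an unadjusted p under 0.05, 0 by DESeq2 and 1 by voom. In MR49F against LNCaP the same 26 had 8 higher and 5 lower (median 0.03), while GATA2 was at -0.96. RPN1, the nearest tested protein-coding gene on one side of GATA2, had 0.19 in MR49F (edgeR adjusted p = 0.0682) and 0.66 in C4-2 (adjusted p = 1.49e-06). RUVBL1, on the other side, was higher in MR49F (0.27, edgeR adjusted p = 0.00629) and did not pass in C4-2 (-0.02, adjusted p = 0.814).

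For NCOR1, 2 of 22 genes within 1 Mb were higher and 6 lower in C4-2 against LNCaP (median -0.12), and 10 were higher and 2 lower in MR49F. Next to it CENPV was nearly silent in C4-2 (0.108 ± 0.130 CPM), against 7.30 ± 0.869 CPM in LNCaP and 11.4 ± 1.48 CPM in MR49F. For NCOA3, 1 of 6 genes within 1 Mb was higher and 3 lower in MR49F (median -0.32), among them ZMYND8, which was lower in MR49F (-0.40, edgeR adjusted p = 5.28e-04) and in C4-2 (-0.41, adjusted p = 3.00e-04). Within 5 Mb, 16 of 73 were higher and 12 lower in MR49F (median 0.05). In C4-2, where NCOA3 was at 0.01, 2 of the 6 within 1 Mb were higher and 3 lower (median -0.30). Copy number was not measured, and its part was not tested.

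**Figure D5:**
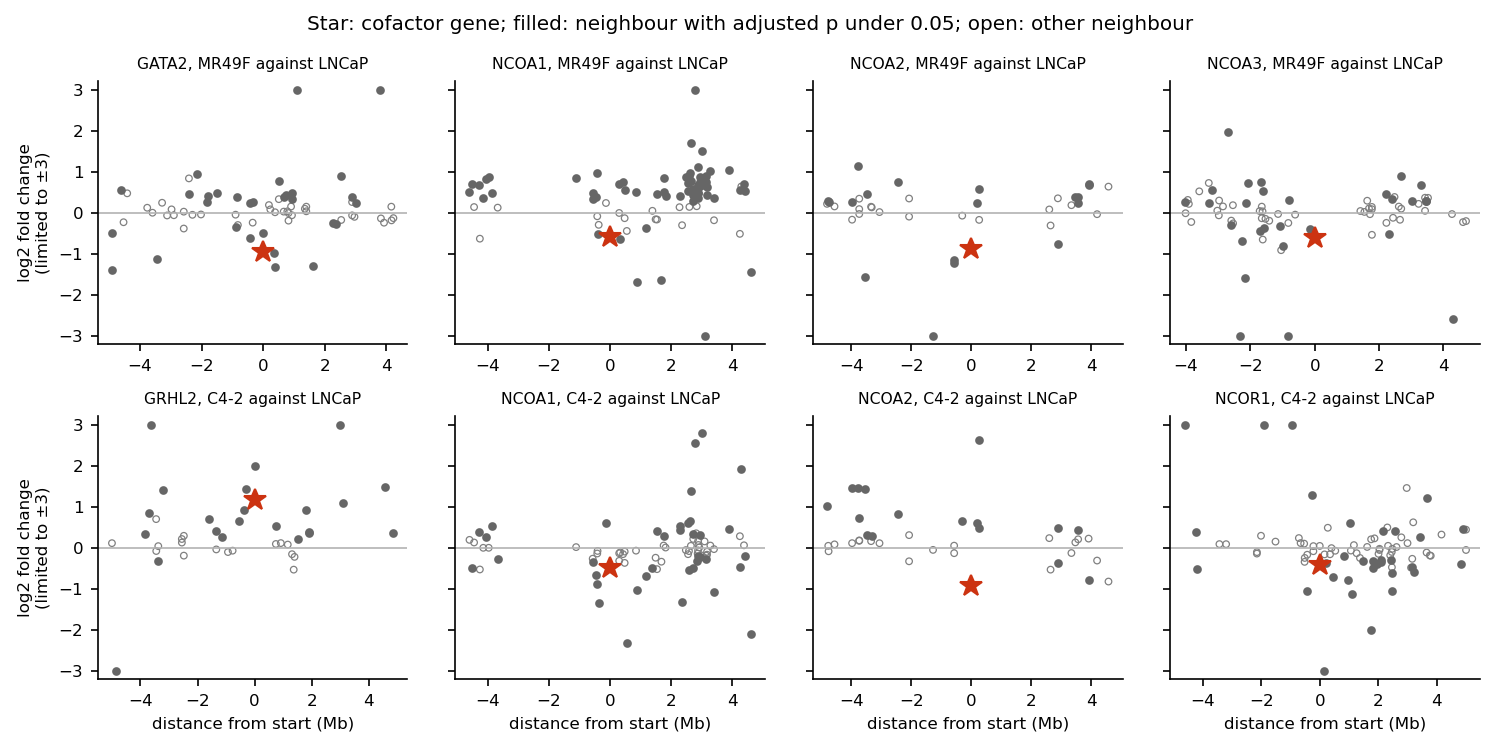
Log2 fold change (vertical axis, limited to ±3) of tested genes within 5 Mb of a cofactor gene against the distance between gene starts in Mb. Stars are the cofactor genes, filled points passed an adjusted p under 0.05; around NCOA1 in MR49F 52 of 79 neighbours are higher while NCOA1 lies at -0.59. The 8 panels were chosen after the values were seen.

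The genes whose pattern over the 9 libraries was most like each cofactor are given by Pearson's r of log2 CPM, as a description over libraries of which 3 each share a line. They were BRIX1 (0.976) and NOP58 (0.970) for FOXA1, TNFSF15 (0.997) and ST3GAL1 (0.996) for GATA2, and ADAMTS1 (0.998) and MAGEA1 (0.995) for GRHL2. They were ZNF431 (0.993) and TTL (0.990) for NCOA1, CAMSAP2 and PDLIM5 (0.990 each) for NCOA2, SLC30A4 (0.995) and TANC1 (0.991) for NCOA3, and RNMT (0.985) and RAPH1 (0.978) for NCOR1. The means of TNFSF15 were 47.7, 6.29 and 80.6 CPM in the order LNCaP, MR49F, C4-2, and ADAMTS1 281, 582 and 1344 CPM. These 9 points fall into 3 lines, and no p is given.

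Coregulators of the receptor, the 7 genes above among them, were counted in 7 lists with 173 genes, of which 158 were tested. In MR49F against LNCaP, 39 were higher and 38 lower, which is 48.7% called, near the 47.0% of all tested genes. In C4-2 against LNCaP 27 were higher and 48 lower (47.5%), and in MR49F against C4-2 55 and 41 (60.8%), near the 49.7% and 61.0% of all tested genes. By direction, 24.1% of all tested genes were higher and 22.8% lower in MR49F against LNCaP. The shares were 26.2% and 23.5% in C4-2 against LNCaP, and 29.9% and 31.1% in MR49F against C4-2. Called list genes in C4-2 against LNCaP were thus more often lower than higher, unlike all tested genes, and this was not tested.

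Among 17 pioneer and collaborating factors, 6 were higher and 6 lower in MR49F than in LNCaP (median log2 fold change -0.15). Called genes made up 70.6% of this list, against 47.0% of all tested genes. ETV1, an ETS factor, was nearly silent in MR49F, with 3 counts in its 3 libraries together against 7654 in LNCaP. Scaled to depth, the LNCaP value was 2795 times that of MR49F (95% exact interval 956 to 13557). For SOX9, a factor of progenitor cells, 2 counts stood against 199, 109 times (29.8 to 906). These intervals cover counting error only. In C4-2 against LNCaP, 6 were higher and 2 lower (47.1% called, against 49.7% of all tested genes), with SOX9 up by 2.08. The lower ones were HOXB13, a prostate lineage factor (-0.48), and ETV1, with 0.288 ± 0.192 CPM in C4-2 against 300.1 ± 12.7 CPM in LNCaP (edgeR adjusted p = 4.88e-20).

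Among 30 p160-associated and other coactivators, 9 were higher and 9 lower in MR49F (median 0.11). The acetyltransferase gene EP300, whose product binds p160 proteins, fell from 167 ± 4.12 to 102 ± 7.07 CPM (-0.72, edgeR adjusted p = 1.37e-05), as did NCOA7 (-0.69). TRIM68, a ubiquitin ligase gene, rose by 0.60. In C4-2 against LNCaP, 2 were higher and 11 lower (median -0.15), with RNF4 (-0.63), TRIM68 (-0.75) and the methyltransferase gene NSD2 (-0.52) lower. The Mediator, which links activators to RNA polymerase II, had 7 higher and 4 lower of 31 in MR49F (median -0.00). MED12 (0.67), MED14 (0.51) and MED17 (0.42) rose, and the kinase gene CDK19 fell (-0.48). In C4-2 its kinase gene CDK8 rose by 0.94, MED28 (-0.67) and CCNC (-0.52) fell, and 3 were higher and 9 lower in all. Of the coactivators 60% were called in MR49F and 43.3% in C4-2, and of the Mediator genes 35.5% and 38.7%. The shares of all tested genes were 47.0% and 49.7%.

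Among 29 corepressors, 7 were higher and 9 lower in MR49F (median -0.04). Called genes made up 55.2% of this list in MR49F and in C4-2, against 47.0% and 49.7% of all tested genes. TBL1X, a partner of NCOR1 in its deacetylase complex, fell (-0.37, edgeR adjusted p = 4.99e-04), while its relative TBL1XR1 had 403 ± 9.53 CPM in LNCaP and 392 ± 42.7 in MR49F (-0.04, adjusted p = 0.736). CTBP1 rose by 0.51 and TLE3 fell (-0.59). RCOR2 was at 0.633 ± 0.0610 CPM in LNCaP and 5.44 ± 1.13 CPM in MR49F. In C4-2 against LNCaP, 4 were higher and 12 lower (median -0.09). TBL1XR1 rose to 669 ± 69.1 CPM (0.73, edgeR adjusted p = 7.78e-07), while NCOR1 fell there, and CTBP1 (-0.81) and LCOR (-0.80) were lower. With single libraries left out, LCOR ranged from -0.97 to -0.62.

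Of 19 demethylases and methyltransferases, 5 were higher in MR49F (median 0.07), among them KDM6A (0.54), DPY30 (0.73) and KDM3A (0.57). These 5 were 26.3% of the list, near the 24.1% of all tested genes that were higher. None was lower by edgeR, DESeq2 or voom, and 1 was at an unadjusted p under 0.05. In C4-2 2 were higher and 7 lower. Of 18 SWI/SNF subunits, which remodel nucleosomes, 2 were higher (BRD9, 0.54, and PHF10, 0.46) and 7 lower in MR49F, with SMARCC1 (-0.69) and BRD7 (-0.53) among the latter. In C4-2 3 were higher and 7 lower, with PHF10 at -0.97 and SMARCA4 at -0.50. Of 14 other nuclear receptors tested, 3 were higher and 3 lower in MR49F. NR3C2, the mineralocorticoid receptor gene, rose from 8.51 ± 1.08 to 16.8 ± 0.353 CPM (0.98, edgeR adjusted p = 7.23e-06), NR2F2 rose by 0.62 and RARG fell (-1.10). In C4-2 7 were higher (median 0.24), with RXRB (0.57) and VDR (0.59) among them. By edgeR, DESeq2 and voom 0 were lower, and 1 was at an unadjusted p under 0.05. GATA3, FOXA2 and ERG, and the receptor genes NR3C1, PGR, ESR1 and ESR2, had too few counts to test. In MR49F, 26.3% of the demethylases and methyltransferases, 50% of the SWI/SNF subunits and 42.9% of the nuclear receptors were called. The share of all tested genes was 47.0%. In C4-2 these lists had 47.4%, 55.6% and 50% called, against 49.7% of all tested genes.

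Between MR49F and C4-2, 14 of 30 coactivators were higher in MR49F and 8 lower, and 11 and 5 of 31 Mediator subunits. Of 19 demethylases and methyltransferases, 11 were higher and 3 lower (median 0.28). Nuclear receptors leaned the other way, with 3 of 14 higher and 7 lower (median -0.25). SWI/SNF subunits had 3 higher and 6 lower of 18, with a median of 0.02. Corepressors had 9 higher and 8 lower of 29, and pioneer and collaborating factors 4 and 4 of 17. Of all tested genes, 29.9% were higher and 31.1% lower. TRIM68 (1.35), KAT2B (1.15), CTBP1 (1.32), MED12 (1.23) and PHF10 (1.43) were higher in MR49F, and TLE1 (-1.69) and TBL1XR1 (-0.77) were lower. With single libraries left out, KAT2B ranged from 0.93 to 1.32. List values with C4-2 include its replicate 1, in which long genes were lower. Without it, 87 of 98 fold changes of list genes picked for naming kept their call, 10 newly passed and 1 no longer passed. In C4-2 against LNCaP 30.0% of tested genes of 8 kb or more were called lower, and 17.4% of those under 2 kb. In MR49F against LNCaP these were 28.7% and 14.4%. For these lists the members were picked with earlier results in view, and no list was tested as a whole.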

How the data were processed

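Poly(A) RNA of LNCaP, MR49F and C4-2 cells, 3 biological replicates each, was prepared with a stranded TruSeq kit and sequenced as paired reads, per the labels' protocols. The authors deposited raw counts per Ensembl gene, 1 column per library, and these counts were used as deposited. TopHat2, HTSeq 0.6.1, FastQC 0.11.3, edgeR 3.12.1 and GRCh38 are named in the submitters' processing notes. The sources used here do not give the strand setting, annotation release or filters. Of the columns, 9 matched a sample label and 3 did not and were not used. The androgen receptor gene itself is not reported here.

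Counts were tested with the quasi-likelihood test of edgeR 4.0.16 (R 4.3.3, robust, TMM scaling, filterByExpr by line) in 1 fit of 9 libraries with 6 residual degrees of freedom. Benjamini-Hochberg adjustment ran over all 15407 tested genes, with a threshold of 0.05. P-values set a difference between lines against the spread among replicates within lines, estimated over the 9 libraries. A standard error is the size of a log2 fold change over the root of its F statistic. CPM use TMM-scaled library sizes, and log2 CPM a prior count of 2. Lengths and coordinates are from GENCODE 29 (GRCh38), and promoter windows from RefSeq. In simulated data for MR49F against LNCaP (15037 genes), 72.7% of 1.5-fold, 87.9% of 2-fold and 100% of 4-fold changes were recovered. The simulation gave every gene the same biological spread, held no trend with gene length and changed only a small set of genes above 1 CPM. These rates therefore need not hold for the real libraries.

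The members and lists were chosen with earlier results of these data known. All 7 members are named. Of each list and comparison the rule names the lowest adjusted p-values among called genes (at most 4), the called gene of at least 10 CPM with the largest change and the uncalled gene with the highest mean CPM, and the text gives a selection of these. It also takes the 2 genes most like each member and the nearest tested protein-coding genes. Alternatives were DESeq2 1.42.0, voom (limma 3.58.1), RLE scaling, other count filters, the 6 libraries of a comparison alone, a replicate block, C4-2 replicate 1 thinned, a test against a 1.5-fold change, the longest transcript as length, and each library left out. Removing the trend with gene length, the length classes and the list of overlapping genes were chosen after seeing the data.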

Additional observations from a re-analysis of the deposited data

How the results depend on the processing

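Over all alternatives, 402 of 420 values of the 7 genes stayed on their side of the threshold, 17 no longer passed and 1 newly passed, and no called value changed sign. A test against a 1.5-fold change is stricter by construction. Under it the genes called numbered 988 higher and 1137 lower for MR49F against LNCaP, 1449 and 672 for C4-2 against LNCaP, and 1298 and 2100 for MR49F against C4-2. The list genes called were 11, 10 and 21, and the cofactors called 2, 2 and 1. The cofactors that did not pass it were GRHL2 (0.55), NCOA1 (-0.59) and NCOA3 (-0.61) for MR49F against LNCaP, GATA2 (0.23), NCOA1 (-0.49) and NCOR1 (-0.41) in C4-2 against LNCaP, and FOXA1 (0.19), GRHL2 (-0.62), NCOA3 (-0.61) and NCOR1 (0.39) in MR49F against C4-2. FOXA1 in MR49F against C4-2 also missed the threshold with no filter on low counts (0.16) and with the 6 libraries alone (0.18). With single libraries left out, it ranged from 0.14 to 0.23, GATA2 in C4-2 against LNCaP from 0.20 to 0.26, and NCOA1 in MR49F against C4-2 from -0.25 to 0.034, and the causes were not tested.

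With the longest transcript as length, the ratio of the highest to the lowest cofactor was 18.0 in LNCaP, 29.5 in MR49F and 16.6 in C4-2. The lowest in C4-2 was then NCOA3 (7.92 CPM per kb), below NCOA1 (8.50). The NCOA2 share was then 51.9%, 47.0% and 40.5%, the NCOA3 share 19.1%, 20.9% and 28.7%, and the NCOA1 share in MR49F 32.1%. Same-numbered libraries of different lines had deviations that correlated at -0.083 to 0.056, and differently numbered ones at -0.115 to 0.127. These values gave no sign of pairing by number, but they cannot show how the replicates were handled. A fit with a replicate block called 5 cofactors in each comparison and changed no cofactor call. It called 3646 higher and 3469 lower genes for MR49F against LNCaP, 3907 and 3553 for C4-2 against LNCaP, and 4552 and 4709 for MR49F against C4-2. The 9 libraries limit the precision, and genes under about 1 CPM rest on few counts.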
